A study of Homo sapiens with 48 samples.

Results

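MFI8 and BI are compounds known here by code name, which per the submitters' design were given to inhibit and to activate the mitofusins MFN1 and MFN2. Both were applied to IMR-90, a line of human fetal lung fibroblasts made senescent with doxorubicin, and the 3 libraries with MFI8 were set against the 3 with BI, 6 of the 48 libraries of the series. The members are the libraries whose titles carry those labels, and the number in the title (1, 2 or 3) was used as a block. Cells received doxorubicin at 200 nM for 48 h. On day 7 they were given MFI8 (20 µM), BI (10 µM) or DMSO, the solvent, which stayed on for 48 h until RNA was collected on day 9. The doses differ, so compound and dose cannot be told apart. Beside it stand 2 further comparisons: senescent against proliferating IMR-90, both in DMSO (3 libraries each), and siRNA against MFN1 and MFN2 together (siMFN1+2) against a negative control siRNA, transfected the day before doxorubicin and sampled on day 7 (3 libraries each). IMR-90 is 1 cell line, and whether libraries of a group come from separate cultures is not stated, so p-values measure the spread between these libraries, which may be technical.

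Mitofusins are GTPases of the outer mitochondrial membrane that tether and fuse neighbouring mitochondria. Senescent cells have left the cell cycle for good and release cytokines, chemokines, proteases and growth factors, together called the senescence-associated secretory phenotype (SASP). Mitochondria feed this secretion, and mitochondrial nucleic acids in the cytosol can switch on NF-kB and interferon signalling, for RNA through the adaptor MAVS on the same membrane.

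Libraries of the comparison held 17997870 to 63330332 counts, and depth followed the number in the title. Levels are given as CPM, counts relative to a TMM-scaled library size, which removes differences in depth and composition. Libraries of the same number deviated together from their group means (correlation 0.66 to 0.88 over 9 pairs, against -0.72 to 0.44 over 18 pairs of different numbers). The 3 libraries numbered 2 stood apart in every group: IL1B was at 3.33 to 5.65 CPM in them and at 82.2 to 255 CPM in the other 6 senescent libraries. Their share of counts from mitochondrial genes was 2.45% to 3.22%, against 3.92% to 4.57%. A difference between MFI8 and BI is therefore read within numbers, in 3 pairs. Of 15 fibroblast markers some were high in all 6 libraries (COL1A1 from 6111 to 14736 CPM, VIM from 3305 to 6188 CPM). Others were far lower: LUM (13.9 to 126 CPM), PRRX1 (9.21 to 44.9 CPM), TWIST2 (9.16 to 21.8 CPM), TWIST1 (12.5 to 19.0 CPM) and S100A4 (10.8 to 14.3 CPM). SOX10, MLANA, TYR, EPCAM, CDH5 and CD3E, which mark melanocytes, epithelium, endothelium and T cells, were at or below 0.302 CPM. Other genes of those lists were not: MITF (35.9 to 56.6 CPM) and TYRP1 (0.351 to 7.83 CPM) of the melanocyte list, KRT18 (95.7 to 124 CPM) and KRT8 (18.3 to 27.0 CPM) of the epithelial list, and TEK (34.6 to 98.6 CPM) of the endothelial list. Summed over all members, tested or not, the melanocyte list was at 43.3 to 64.9 CPM with MFI8 and 49.2 to 70.7 CPM with BI. The epithelial list was at 119 to 142 and 121 to 152, the endothelial list at 37.6 to 79 and 38.4 to 102, and the leukocyte list at 1.27 to 2.92 and 1.73 to 3.11. Their part in the results was not tested.

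Of 18869 genes tested with edgeR's quasi-likelihood test, 230 were higher (1.22%) and 402 lower (2.13%) with MFI8 than with BI at an adjusted p below 0.05, 3.35% together. Counts of list members called between MFI8 and BI stand beside these shares. Most differences were small: the median size of a called change was 0.392 on the log2 scale, and 6 genes were higher (0.0318% of those tested) and 17 lower (0.0901%) by 2-fold or more. The genes lower with MFI8 included the chemokine CXCL10, the interferon-stimulated genes around it, the PDGF receptors and the contractile genes. The genes higher with MFI8 included matrix metalloproteinases, NRF2 targets and replication genes. These calls rest on the block: without it 0 genes were called by edgeR (253 at an unadjusted p below 0.05). With the 12 libraries of the compound experiment in 1 fit, proliferating cells included, 0 were called with the block (969 at an unadjusted p below 0.05). With the 6 libraries alone 23 were higher and 68 lower, and DESeq2 with the block called 234 higher and 449 lower. Without BI library 2 the counts were 16 and 69, and without the libraries numbered 3 they were 4 and 28. Of the 67 called genes that a naming rule picked for the text, 24 were called without BI library 2 and 42 to 64 without any other single MFI8 or BI library. Without the libraries numbered 3 there were 7, and with the 6 MFI8 and BI libraries alone 24. DMSO libraries were not left out singly for this comparison. The 22 called with each single MFI8 or BI library left out were CXCL10, ISG15, IFI6, VCAM1, PDGFRA, PDGFRB, FLT1, TCF21, COL3A1, VCAN, CCN4, WFDC1, SLC43A2, IGFBP4 and IGFBP5 on the lower side, and TXNRD1, SERPINB2, FOSL1, CYP1B1, ALDH1A3, KRTAP2-3 and KRTAP2-4 on the higher side.

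**Figure D1:**
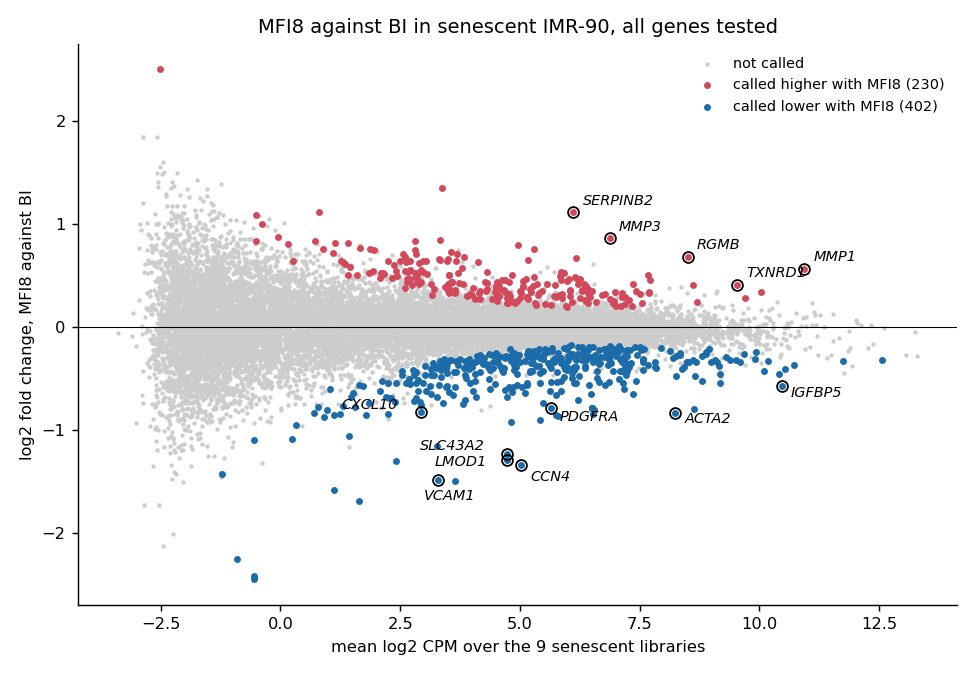
Log2 fold change of MFI8 against BI (vertical) by mean log2 CPM over the 9 senescent libraries (horizontal), 1 point per gene tested. Red points are the 230 genes called higher and blue points the 402 called lower with MFI8, and the ringed genes are named in the text.

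**Figure D2:**
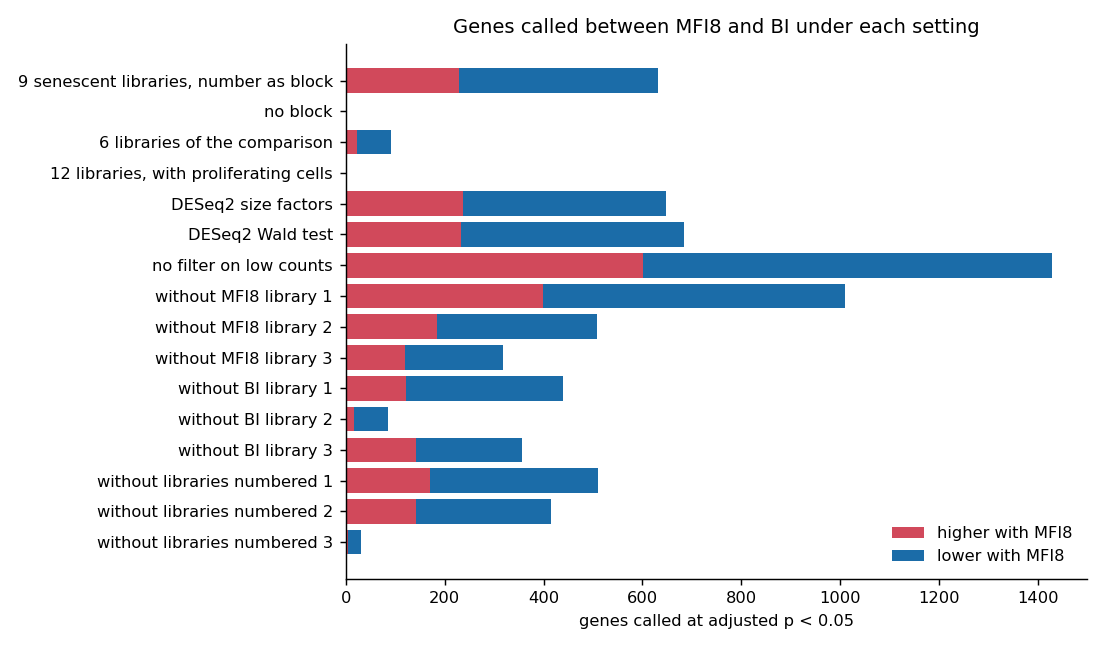
Number of genes called higher (red) and lower (blue) with MFI8 than with BI at an adjusted p below 0.05, by setting. The fit without the block and the fit with 12 libraries call 0 genes, and leaving out the libraries numbered 3 leaves 32.

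Of 50 interferon-stimulated genes, which encode antiviral effectors and chemokines switched on when interferon binds its receptors, 19 were lower and 0 higher with MFI8 than with BI. Their best known promoter element is the interferon-stimulated response element (ISRE), searched here as GAAA, any 2 bases and GAAA again, on both strands in the 250 bases before the start site. It was present in 23 of 40 genes of the list with a RefSeq promoter (57.5%) and in 839 of 27303 promoters overall (3.07%). Among genes called lower with MFI8, 22 of 284 held it (7.75%), and among those called higher 3 of 175 (1.71%). Of tested genes with a RefSeq promoter 2.65% held it. Promoters of 2 of these genes are printed because they carry the element beside the measured change, with the ISRE in capitals. For CXCL10, matches to an NF-kB motif, searched by consensus, are in capitals too. That motif was present in 9.57% of all promoters and in 11.5% of those of tested genes. Both are RefSeq sequences on GRCh38.p14, 5′ to 3′ on the gene's strand. CXCL10 is chr4:76023498-76023747 on the minus strand, with the ISRE 221 to 212 bases before the start and NF-kB matches at 177 to 168 and 122 to 113. ISG15 is chr1:1013247-1013496 on the plus strand, with overlapping ISREs at 113 to 104 and 107 to 98. A match describes the letters and shows no binding.
CXCL10: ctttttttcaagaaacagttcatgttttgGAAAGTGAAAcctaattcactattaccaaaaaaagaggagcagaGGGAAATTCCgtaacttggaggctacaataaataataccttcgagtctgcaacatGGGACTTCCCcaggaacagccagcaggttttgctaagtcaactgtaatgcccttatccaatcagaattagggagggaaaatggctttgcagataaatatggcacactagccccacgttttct
ISG15: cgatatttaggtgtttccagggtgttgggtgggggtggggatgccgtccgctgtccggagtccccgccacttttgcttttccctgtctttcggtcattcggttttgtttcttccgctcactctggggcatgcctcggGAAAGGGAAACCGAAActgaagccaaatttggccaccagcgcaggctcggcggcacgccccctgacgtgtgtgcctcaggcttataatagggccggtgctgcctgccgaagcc

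CXCL10 (ENSG00000169245, GRCh38 chromosome 4, 76021117 to 76023497), a chemokine that draws activated T cells through CXCR3, was at 19.4, 0.647 and 15.7 CPM with MFI8 in libraries 1, 2 and 3. With BI it was at 34.7, 0.727 and 29.7 CPM, and in DMSO at 31.1, 0.796 and 19.9 CPM. MFI8 was lower than BI in each of the 3 pairs, by little in pair 2, where CXCL10 was near 1 CPM in all groups. The log2 fold change was -0.83 (SE 0.10, adjusted p = 0.00166), and it was -0.87 without the libraries numbered 2. MFI8 also lay below DMSO (-0.54, adjusted p = 0.0146), while BI against DMSO gave 0.29 (adjusted p = 0.266). The call against BI was kept with each of the 6 libraries left out in turn, and missed the threshold without the libraries numbered 3 (-0.77, adjusted p = 0.0501).

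The median over the 50 interferon-stimulated genes was -0.34, against 0.00135 over all genes, and 39 were lower in all 3 pairs (78.0%, against 19.6% of all genes). ISG15, a ubiquitin-like modifier, was at 84.2, 26.8 and 36.3 CPM with MFI8 and at 106, 52.6 and 60.8 CPM with BI (-0.66, SE 0.09, adjusted p = 0.00275). IFI6, an antiviral protein of membranes, was at 161, 24.8 and 62.0 CPM with MFI8 and at 202, 58.0 and 96.1 CPM with BI (-0.71, SE 0.12, adjusted p = 0.00851). Each MFI8 library was below the BI library of its number, while the groups overlapped across numbers. XAF1, an interferon-induced partner of the apoptosis inhibitor XIAP, fell by 0.75 on the log2 scale (adjusted p = 0.02). Beside DMSO the members did not all lie on the same side: IFI6 gave -0.00 for MFI8 (adjusted p = 0.998) and 0.71 for BI (adjusted p = 0.0118), and ISG15 gave -0.23 (0.232) and 0.44 (0.0323). IFI27, chosen after its values were seen, gave 0.02 for MFI8 and 0.73 for BI (adjusted p = 0.00785). Against DMSO 0 members were higher and 5 lower with MFI8 (0.917% and 2.04% of all genes), and 3 were higher and 0 lower with BI (0.371% and 0.731%). These 2 comparisons share the DMSO libraries. The count against BI was 22 without the libraries numbered 2, 8 without MFI8 library 3, 5 without BI library 2, 7 without BI library 3 and 0 without the libraries numbered 3. Of 25 genes of interferon signalling and nucleic acid sensing, 0 were higher and 1 lower (1.22% and 2.13% of all genes). The gene called was the interferon gamma receptor subunit IFNGR2 (-0.22, adjusted p = 0.034). In this list 0 were called without MFI8 library 1 or 3, without BI library 2 or 3, and without the libraries numbered 3. A fit of the 6 MFI8 and BI libraries alone called 4 interferon-stimulated genes lower and 0 of the signalling genes.

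**Figure D3:**
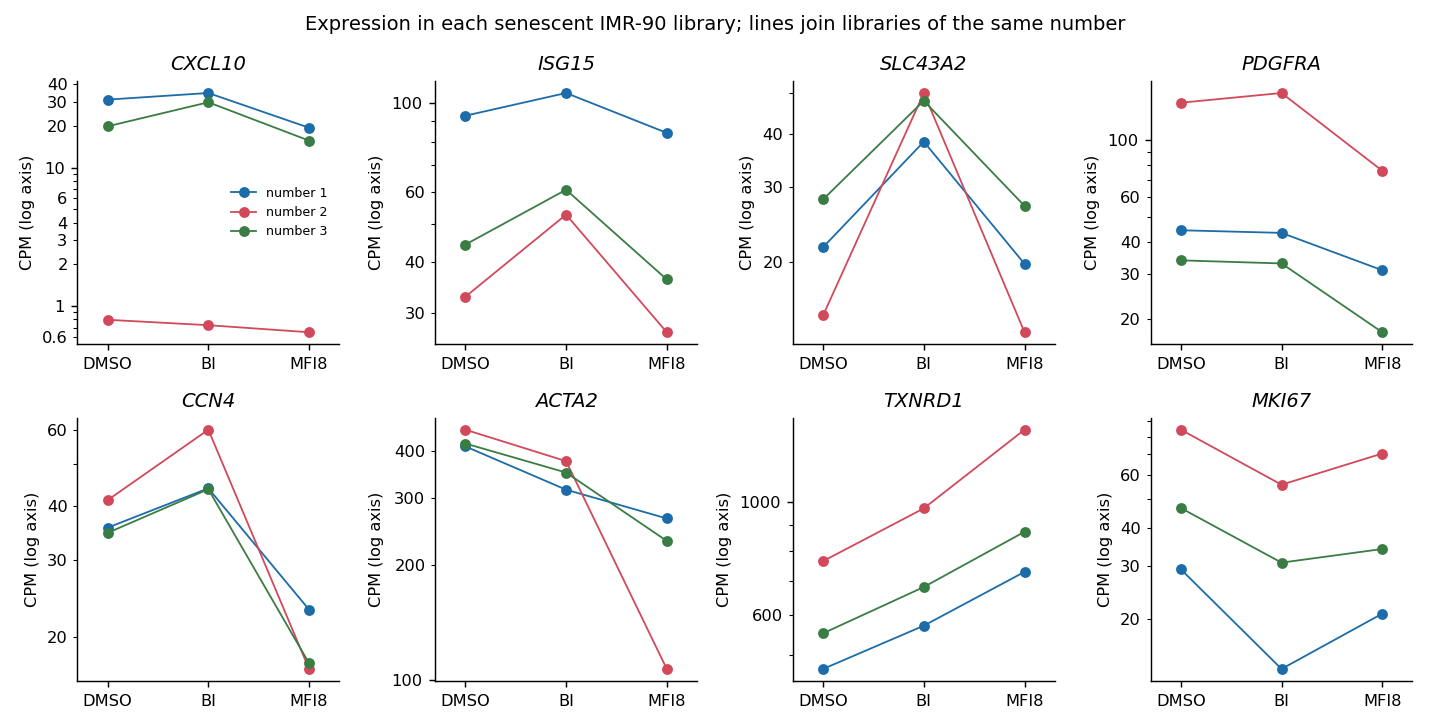
CPM on a log axis in the 9 senescent libraries for 8 genes, with a line joining the DMSO, BI and MFI8 libraries of the same number (blue 1, red 2, green 3). CXCL10 lies near 1 CPM in the libraries numbered 2, and for each gene shown except MKI67 and TXNRD1, which run the other way, all 3 lines go down from BI to MFI8.

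Among receptor tyrosine kinases, the cell surface receptors for growth factors, PDGFRA showed the lowest called value. PDGFRA (ENSG00000134853, chromosome 4, 54229097 to 54298247), the receptor of PDGF ligands that marks fibroblasts, was at 30.9, 76.0 and 17.7 CPM with MFI8 and at 43.4, 153 and 32.9 CPM with BI. In DMSO it was at 44.4, 140.5 and 33.8 CPM. Every MFI8 library was below both other libraries of its number (MFI8 against BI -0.79, SE 0.08, adjusted p = 0.000441). Against DMSO the value was -0.76 for MFI8 (adjusted p = 0.000653) and 0.03 for BI (adjusted p = 0.941). The call was kept with each MFI8 or BI library and each number left out in turn (-0.63, adjusted p = 1.64e-05, without number 2). Of 27 receptors tested 1 was higher and 3 lower. PDGFRB (-0.53, adjusted p = 0.0069) and the VEGF receptor FLT1 (-0.59, adjusted p = 0.00166) were the other 2 lower. MET, the receptor of HGF, was higher (0.25, adjusted p = 0.02), and its ligand HGF was lower (-0.45, adjusted p = 0.00522). FGF7, a growth factor for epithelium, was lower as well (-0.30, adjusted p = 0.0426). With 1 MFI8 or BI library left out, MET was called in 3 of 6 cases, HGF in 5 and FGF7 in 2. In a fit of the 6 MFI8 and BI libraries alone 2 receptors were lower and 0 higher. Of 15 fibroblast markers 0 were higher and 4 lower, PDGFRA, PDGFRB, COL3A1 and the transcription factor gene TCF21 (-0.57). In bulk RNA, fewer cells of a type and less RNA per cell cannot be told apart.

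Of 15 smooth muscle contractile genes, the actin and myosin apparatus that fibroblasts take up as myofibroblasts, 9 were lower and 0 higher with MFI8 than with BI. They are driven by serum response factor at CArG boxes, searched by their consensus. A match was held by 3 of 11 list members with a RefSeq promoter (27.3%) and by 1 of the 7 such members called lower (14.3%). CArG boxes were in 13 of 284 genes called lower (4.58%), in 1.11% of tested genes with a RefSeq promoter and in 1.14% of all promoters. ACTG2, gamma smooth muscle actin, is printed because it holds 2 of them, in capitals, at 110 to 101 and 73 to 64 bases before the start (chr2:73892758-73893007, plus strand, GRCh38.p14).
ACTG2: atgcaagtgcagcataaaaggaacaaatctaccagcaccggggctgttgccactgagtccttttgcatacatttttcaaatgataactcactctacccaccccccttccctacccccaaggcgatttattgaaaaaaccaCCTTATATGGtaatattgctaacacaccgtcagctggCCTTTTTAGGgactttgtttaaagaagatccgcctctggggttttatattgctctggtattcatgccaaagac

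The median of the contractile genes was -0.40, and 14 of 15 were lower in all 3 pairs (93.3%, against 19.6% of all genes). ACTA2, alpha smooth muscle actin, was at 266, 107 and 232 CPM with MFI8 and at 316, 376 and 351 CPM with BI, without overlap (-0.83, SE 0.21, adjusted p = 0.0457). ACTG2 was at 414, 113 and 387 CPM against 541, 319 and 585 CPM (-0.80, SE 0.16, adjusted p = 0.0157). LMOD1, which nucleates actin filaments in smooth muscle, was at 16.0, 14.6 and 11.9 CPM against 23.8, 77.0 and 22.9 CPM (-1.30, SE 0.26, adjusted p = 0.0182). Pair 2 had the widest gap in each of these 3 genes. Without the libraries numbered 2 the values were smaller and still called: -0.41 for ACTA2, -0.49 for ACTG2 and -0.70 for LMOD1, with 9 members lower. Without BI library 2, BI library 3 or the libraries numbered 3, 0 members were called in each case, and without MFI8 library 3 there were 4. A fit of the 6 MFI8 and BI libraries alone, with the block, also called 0, so the 9 calls depend on having the DMSO libraries in the fit. Against DMSO 11 were lower with MFI8 (ACTA2 -1.13, adjusted p = 0.0112) and 0 were called with BI (ACTA2 -0.30, adjusted p = 0.664). Over all genes 2.04% were lower with MFI8 than in DMSO. The collagen and matrix list had 0 of 31 higher and 4 lower (median -0.21), among them COL3A1 (-0.55, adjusted p = 0.0157), the adhesive protein POSTN (-0.45, adjusted p = 0.00745) and the proteoglycan VCAN (-0.41, adjusted p = 0.00498). This count was 11 with DESeq2, 9 without BI library 1, 10 without MFI8 library 1 (with 1 higher), 2 without BI library 2 and 0 without the libraries numbered 3. It was 1 with the 6 MFI8 and BI libraries alone. Against DMSO 11 matrix genes were lower with MFI8 (2.04% of all genes were) and 0 were called with BI.

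The factor NRF2 turns on detoxifying and antioxidant genes when KEAP1 releases it. Of 28 NRF2 and oxidative stress genes, 7 were higher and 0 lower with MFI8 than with BI. The median was 0.21, and 20 were higher in all 3 pairs (71.4%, against 18.9% of all genes). The antioxidant response element, searched as TGAC, any 3 bases and GC, was in 5 of 22 list members with a RefSeq promoter (22.7%). It was in 19 of 175 genes called higher (10.9%), in 12.1% of tested genes with a RefSeq promoter and in 11% of all promoters. TXNRD1, thioredoxin reductase, was at 729, 1390.0 and 874 CPM with MFI8 and at 571, 972 and 680.2 CPM with BI. In DMSO it was at 469, 765 and 551 CPM, so within each number DMSO was lowest and MFI8 highest (MFI8 against BI 0.41, SE 0.05, adjusted p = 0.00209). AKR1C1, an aldo-keto reductase, was at 39.3, 106 and 62.2 CPM against 34.1, 38.8 and 43.3 CPM (0.76, SE 0.18, adjusted p = 0.0368). AKR1C1 has near-identical paralogs, between which reads may be split, so its level is uncertain, and the value was 0.34 without the libraries numbered 2 and not called without BI library 2 (0.54, adjusted p = 0.328). Another reductase, AKR1B10, rose by 0.64 (adjusted p = 0.02). Both compounds raised members of this list over DMSO: 23 were higher with MFI8 (median 0.53) and 8 with BI (median 0.29), and 0 were lower with either. Over all genes 0.917% were higher with MFI8 than in DMSO and 0.371% with BI. HMOX1, heme oxygenase, chosen after its values were seen, was at 21.4, 50.0 and 18.1 CPM with MFI8 and at 21.4, 45.1 and 18.2 CPM with BI, a difference that was not called (0.06, adjusted p = 0.868). The cystine importer gene SLC7A11 was higher with MFI8 (0.50, adjusted p = 0.00782). It was the single member called among 33 ATF4 and mitochondrial stress genes, where 1.22% of all genes were higher. SQSTM1, an autophagy receptor, was higher too (0.33, adjusted p = 0.0325). The NRF2 count was 12 without MFI8 library 1 (with 1 lower), 3 without MFI8 library 3, 1 without BI library 2, 2 without BI library 3 and 0 without the libraries numbered 3. It was 2 with the 6 MFI8 and BI libraries alone.

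Of 36 genes of the cell cycle and DNA replication 8 were higher and 0 lower with MFI8 than with BI (median 0.30). Against DMSO 10 were lower with MFI8 (median -0.25) and 20 with BI (median -0.48). Over all genes 2.04% were lower with MFI8 and 0.731% with BI. MKI67, a marker of cycling cells, was at 20.9, 70.5 and 34.1 CPM with MFI8, at 13.7, 55.6 and 30.8 CPM with BI and at 29.2, 84.5 and 46.6 CPM in DMSO. In each number DMSO was highest and BI lowest (MFI8 against BI 0.37, SE 0.08, adjusted p = 0.0299; MFI8 against DMSO -0.40, 0.0193; BI against DMSO -0.77, 0.000484). The helicase subunit MCM2 (0.44, adjusted p = 0.00614), the ribonucleotide reductase subunit RRM2 (0.41, adjusted p = 0.013) and the spindle checkpoint kinase BUB1B (0.43, adjusted p = 0.0339) were called too. All 36 fell with doxorubicin against proliferating cells, by a median of 3.08 on the log2 scale, where 27.8% of all genes tested were lower. An E2F motif, searched as TTT, any base and GCGC, was in 4 of 29 list members with a RefSeq promoter (13.8%). It was in 4 of 175 genes called higher (2.29%), in 2.3% of tested genes with a RefSeq promoter and in 1.54% of all promoters. CDKN1A, which encodes the kinase inhibitor p21 that p53 switches on in arrested cells, was at 1928, 1682 and 1980.0 CPM with MFI8 and at 2131, 2305 and 2076 CPM with BI, without overlap but not called (-0.22, adjusted p = 0.119). Of 28 p53 targets 0 were higher and 2 lower, TP53INP1 (-0.31) and BBC3 (-0.25), which both promote cell death. The median of the p53 targets was -0.09, and 16 were lower in all 3 pairs (57.1%, against 19.6% of all genes). BBC3 was not called with any of the 6 libraries left out (adjusted p up to 0.279), TP53INP1 was called in 3 of those 6 cases, and 0 p53 targets were called without MFI8 library 3, BI library 2 or BI library 3. The cell cycle count was 4 without the libraries numbered 2, 2 without BI library 1, 0 without BI library 2 (MKI67 0.44, adjusted p = 0.0834) and 1 without the libraries numbered 3. It was 0 in a fit of the 6 MFI8 and BI libraries alone, as was the count of p53 targets.

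Of 37 SASP proteases, inhibitors and growth factors 4 were higher and 5 lower. SERPINB2, which inhibits plasminogen activators, was at 138, 95.5 and 80.5 CPM with MFI8 and at 86.2, 22.6 and 52.6 CPM with BI (1.11, SE 0.19, adjusted p = 0.00785). MMP3 was at 268, 244 and 95.5 CPM against 207, 79.1 and 65.8 CPM (0.86, SE 0.17, adjusted p = 0.0157), and MMP1, interstitial collagenase, at 3330.0, 4411 and 1274 CPM against 3070.0, 1971 and 977 CPM (0.57, adjusted p = 0.0413). Pair 2 again had the widest gap, and without the libraries numbered 2 the values were 0.65, 0.44 and 0.25, all called. Without BI library 2, MMP3 (0.60, adjusted p = 0.121) and MMP1 (0.37, adjusted p = 0.309) were not. The IGF binding proteins went the other way: IGFBP5 was at 1175, 1873 and 561 CPM against 1419, 3162 and 919 CPM (-0.58, SE 0.08, adjusted p = 0.00294), and IGFBP4 gave -0.41 (adjusted p = 0.00414). The counts of this list were 11 higher and 6 lower without MFI8 library 1, 1 and 2 without BI library 2, and 0 and 0 without the libraries numbered 3. They were 0 and 2 with the 6 MFI8 and BI libraries alone.

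Of 26 SASP cytokines and chemokines 0 were higher and 3 lower: CXCL1, which draws neutrophils (-0.57, adjusted p = 0.00829), IL6 (-0.39, adjusted p = 0.0326) and the macrophage growth factor CSF1 (-0.39, adjusted p = 0.0182). IL6 was at 179, 11.7 and 83.8 CPM with MFI8 and at 236, 12.8 and 124 CPM with BI, and leaving out single libraries ended its call in 3 of 6 cases (adjusted p up to 0.157). IL1B (0.10, adjusted p = 0.572) and CCL2 (-0.15, adjusted p = 0.355) were not called. CXCL8 was at 372, 30.3 and 127 CPM against 421, 11.7 and 161 CPM, with pair 2 opposite to the others (0.20, adjusted p = 0.705). Without the libraries numbered 2, CXCL8 was lower with MFI8 (-0.25, adjusted p = 0.00494) and the list had 6 lower, as it did without MFI8 library 2. Without MFI8 library 3, and without the libraries numbered 3, 0 were called. In a fit of the 6 MFI8 and BI libraries alone 1 was lower. Among 20 NF-kB targets the adhesion receptors VCAM1 (6.72, 1.97 and 8.10 CPM against 13.0, 11.8 and 21.2 CPM; -1.49, SE 0.19, adjusted p = 0.00174) and ICAM1 (-0.37, adjusted p = 0.0145) were lower and 0 were higher. This count was 3 without the libraries numbered 2, 1 without MFI8 library 3, BI library 2 or BI library 3, and 0 without the libraries numbered 3.

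Of 24 immediate early and AP-1 genes 4 were higher and 0 lower, among them the AP-1 subunit FOSL1 (0.42, adjusted p = 0.00516), MYC (0.43, adjusted p = 0.00498) and the kinase feedback inhibitor SPRY2 (0.47, adjusted p = 0.041). Of 13 xenobiotic response genes 4 were higher and 0 lower. Among these CYP1B1 (20.8, 8.05 and 15.2 CPM against 13.3, 4.69 and 10.6 CPM; 0.64, adjusted p = 0.00275) and CYP1A1 (0.83, adjusted p = 0.0275) encode enzymes induced by the aryl hydrocarbon receptor. CYP1A1 was near the floor, at 3.25, 1.05 and 2.58 CPM with MFI8 and at 2.04, 0.351 and 1.60 CPM with BI. Its call was kept in 2 of 6 cases with 1 library left out. Against DMSO CYP1B1 was not called with either compound (0.27 with MFI8, adjusted p = 0.128, and -0.38 with BI, adjusted p = 0.0677). Nor was CYP1A1 (0.17 with MFI8, adjusted p = 0.717, and -0.66 with BI, adjusted p = 0.143). Retinal dehydrogenase ALDH1A3 was higher with MFI8 than with BI (0.68, adjusted p = 0.00322) and than in DMSO (0.52, adjusted p = 0.0112). Among 29 glycolysis and hypoxia genes 0 were higher and 3 lower, ADM (-0.39), HK2 (-0.35) and NDRG1 (-0.34). Without BI library 2 the immediate early list had 1 higher, the xenobiotic list 2 higher and the glycolysis list 0 lower, and without the libraries numbered 3 they had 0, 1 and 0. In a fit of the 6 MFI8 and BI libraries alone they had 1, 2 and 0.

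**Figure D4:**
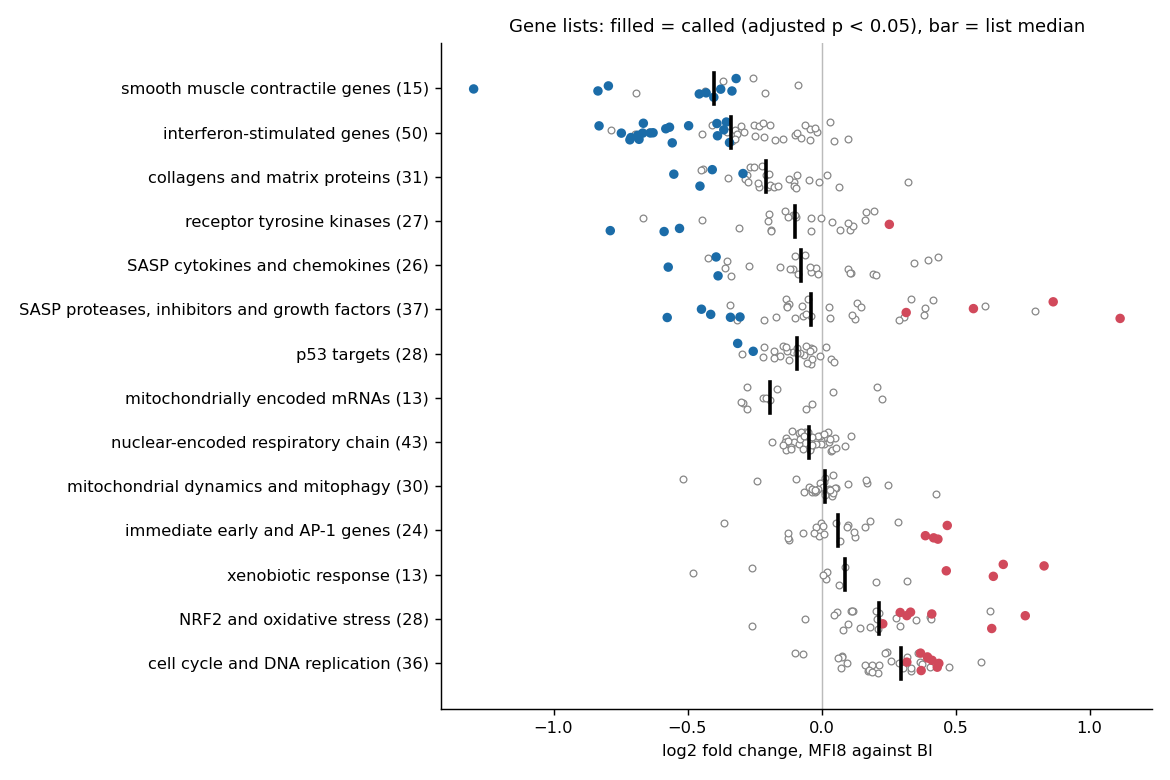
Log2 fold change of MFI8 against BI for the members of 14 gene lists, with the number tested in brackets. Filled points passed an adjusted p of 0.05 (blue lower, red higher), open points did not, and the bar is the list median; contractile and interferon-stimulated genes lie to the left and cell cycle and NRF2 genes to the right.

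The mitofusins themselves did not pass the test. MFN1 was at 59.4, 50.7 and 64.5 CPM with MFI8 and at 58.5, 54.0 and 71.1 CPM with BI (-0.07, adjusted p = 0.588). MFN2 was at 164, 172 and 163 CPM against 162, 179.9 and 170.1 CPM (-0.04, adjusted p = 0.757), and MAVS gave 0.04 (adjusted p = 0.691). Messenger RNA levels do not report the activity of the proteins the compounds are meant to act on. In edgeR 0 of 30 mitochondrial dynamics and mitophagy genes, 0 of 43 nuclear-encoded respiratory chain genes and 0 of 13 mitochondrially encoded mRNAs were called, with medians of 0.01, -0.05 and -0.19. At an unadjusted p below 0.05 there were 4, 8 and 8 of them. DESeq2 called 0, 0 and 3, the 3 mitochondrially encoded mRNAs being lower with MFI8. Without MFI8 library 1, edgeR called 1 of the dynamics and mitophagy genes higher. In edgeR 2 of these mitochondrially encoded mRNAs were lower without BI library 3, 1 without MFI8 library 2, and with no filter on low counts 8 were lower and 1 higher.

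Several of the genes with the largest differences lay outside these lists. SLC43A2, a transporter of neutral amino acids, was at 19.8, 13.6 and 27.1 CPM with MFI8 and at 38.4, 50.0 and 48.0 CPM with BI (-1.24, SE 0.16, adjusted p = 0.00168). DMSO libraries were at 21.6, 14.9 and 28.1 CPM, so MFI8 lay close to DMSO (-0.10, adjusted p = 0.827) and BI above it (1.14, adjusted p = 0.00194). CCN4, a secreted matrix protein, was at 23.1, 16.8 and 17.4 CPM with MFI8 and at 43.9, 60.0 and 43.7 CPM with BI (-1.34, SE 0.12, adjusted p = 0.000228), and here MFI8 also lay below DMSO (-0.94, adjusted p = 0.00131). The groups did not overlap in either gene, as the rule that named them required. Both calls were kept with each MFI8 or BI library and each number left out in turn. WFDC1, a secreted protein with a protease inhibitor fold (-1.16, adjusted p = 0.00081), the scavenger receptor OLR1 (-0.90, adjusted p = 0.00745), the transcription cofactor gene LBH (-0.84, adjusted p = 0.0119) and IRAG1, a target of cGMP signalling (-0.92, adjusted p = 0.0493), were lower as well. RGMB, a co-receptor for BMP ligands, was higher at 372, 647 and 403 CPM against 273, 272 and 322 CPM (0.68, SE 0.13, adjusted p = 0.0143). KRTAP2-3, a hair keratin-associated gene with a near-identical neighbour, KRTAP2-4, was higher too (0.65, adjusted p = 0.000441), where BI lay below DMSO (-0.52, adjusted p = 0.0016) and MFI8 gave 0.13 (adjusted p = 0.363). GPAT3 (0.71), which makes glycerolipids, MACIR (0.80), KRT34 (0.84) and DDIT4L (0.64) were also higher. Without BI library 2, OLR1 (adjusted p = 0.0613), LBH (0.0981), IRAG1 (0.348) and RGMB (0.104) were not called. Nor were GPAT3 (0.28), MACIR (0.23), KRT34 (0.107) and DDIT4L (0.244), while WFDC1, KRTAP2-3 and KRTAP2-4 were. IRAG1 gave -0.24, -2.04 and -0.60 in pairs 1, 2 and 3. The ribosomal RNA gene RNA5-8SN3 was lower (-0.81, adjusted p = 0.0413), and as copies of ribosomal RNA genes are near-identical this value is uncertain. It was not called without BI library 2 (adjusted p = 0.263). Nuclear ribosomal RNA took 0.0594%, 0.0312% and 0.0735% of counts with MFI8 and 0.0942%, 0.0915% and 0.072% with BI, so pair 3 ran the other way, and the part of this difference in other results was not tested.

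The same genes were then read in 2 comparisons that share no library with MFI8 against BI, though the DMSO libraries of the first also enter the fit of the spread here. With doxorubicin against proliferating cells 27.3% of 16943 genes tested were higher and 27.8% lower. Of 401 genes lower with MFI8 than with BI and tested there, 255 were higher with doxorubicin (63.6%, which is 5.51% of all genes higher with doxorubicin) and 21 lower (5.24%). Of 229 genes higher with MFI8, 113 were lower with doxorubicin (49.3%) and 44 higher (19.2%). Among the 50 interferon-stimulated genes 48 were tested there, 26 were higher and 0 lower, and CXCL10 rose by 4.76 on the log2 scale (adjusted p = 0.0082). WFDC1 (4.51), SLC43A2 (3.90) and VCAM1 (3.97) were also called higher with doxorubicin.

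With siMFN1+2 against the control siRNA 8.67% of 18113 genes tested were higher and 7.98% lower. MFN1 fell by 2.15 and MFN2 by 3.13 on the log2 scale. Of 402 genes lower with MFI8 than with BI, 99 were higher (24.6%) and 83 lower (20.6%) with siMFN1+2, and of 229 higher ones 44 were higher (19.2%) and 31 lower (13.5%), so called genes fell on both sides. Interferon-stimulated genes were lower in the main, 31 of 47 tested with 2 higher, including CXCL10 (-3.55, adjusted p = 0.00079). PDGFRA gave 0.13 (adjusted p = 0.64), 2 of 15 contractile genes were higher and 2 lower, and MMP3 (-1.56, adjusted p = 0.015) and MMP1 (-1.46, adjusted p = 0.0023), higher with MFI8, were lower. All 13 mitochondrially encoded mRNAs were lower with siMFN1+2. Without the block 1 gene was called for siMFN1+2.

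**Figure D5:**
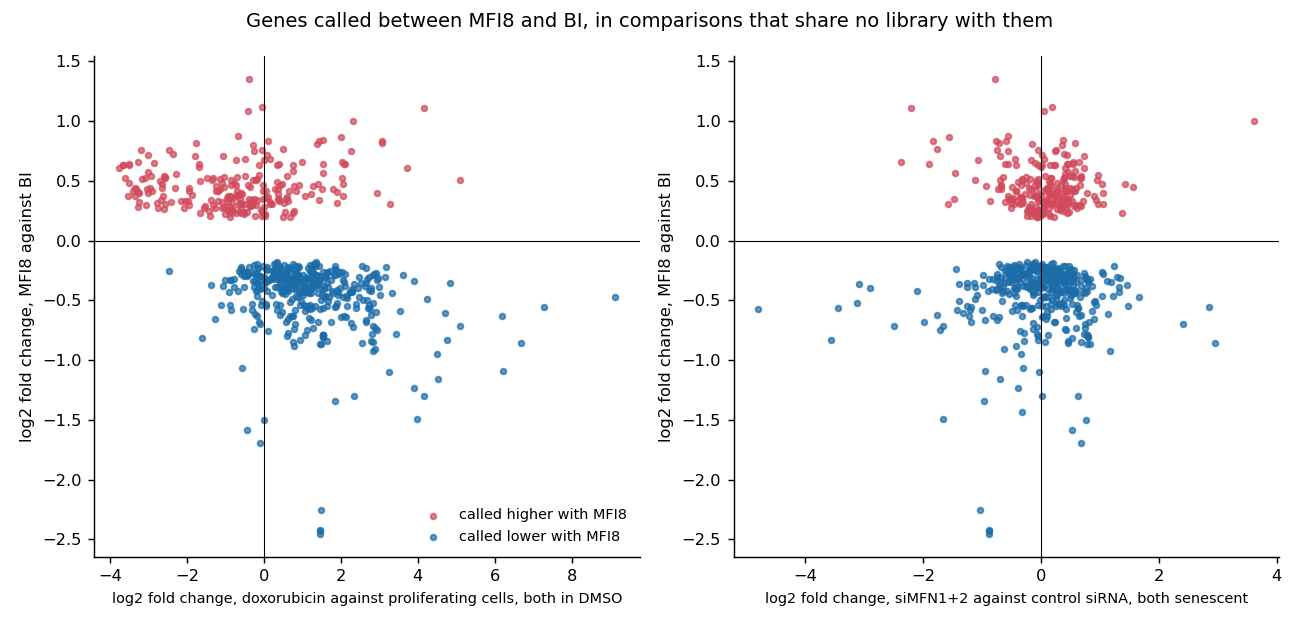
Genes called between MFI8 and BI (vertical axis, log2 fold change; red higher, blue lower with MFI8) against their log2 fold change with doxorubicin (left) and with siMFN1+2 (right). On the left 255 of the 401 blue genes tested were called higher with doxorubicin, and on the right blue and red genes lie on both sides of 0.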

How the data were processed

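Messenger RNA was sequenced from poly(A) libraries made with a stranded kit, per the labels' protocols. The authors deposited raw counts per Ensembl gene, and the submitters' processing notes name Trim Galore 0.6.7, STAR 2.7.10a, featureCounts and GRCh38. The annotation release and strand setting are not given in the sources used here, so antisense genes are not interpreted. Symbols were found for 48679 of 48898 identifiers, which leaves 0.122% of counts without one. Gene positions are from GENCODE 29.

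MFI8, BI and DMSO libraries (9) were fitted together in R 4.3.3 with edgeR 4.0.16 (filterByExpr, TMM, quasi-likelihood F test, replicate number as block, 4 residual degrees of freedom, Benjamini-Hochberg adjustment over all genes tested), on counts as deposited. Standard errors were taken as log2 fold change divided by the root of the F statistic. Same-numbered libraries deviated together, with every pair above 0.1, so the numbers were taken to pair the libraries. The doxorubicin and siMFN1+2 comparisons were separate blocked fits of 6 libraries. Alternatives were no block, other libraries in the fit, DESeq2 1.42.0 size factors and test, no filter, and libraries left out. The script was tested on simulated data. Members and gene lists (30) were chosen with earlier results of these data known. The text names CXCL10, PDGFRA and 10 preset genes, the 10 highest and 10 lowest called genes whose MFI8 and BI libraries did not overlap and whose log2 CPM averaged 2 or more, and for each list its 3 highest and 3 lowest called members.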

Additional observations from a re-analysis of the deposited data

How the results depend on the processing

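The replicate block decided the counts. Without it 0 genes were called for MFI8 against BI, for MFI8 against DMSO and for BI against DMSO, and 1 for siMFN1+2 against control siRNA, while doxorubicin against proliferating cells kept 9340 calls. With all 12 libraries of the compound experiment and the block the first 3 comparisons again gave 0 (edgeR, with 969 genes at an unadjusted p below 0.05 for MFI8 against BI), and with only the 6 libraries of a comparison MFI8 against BI gave 91 and BI against DMSO 673. With no filter on low counts the numbers were 1428, 1225 and 546. Leaving out 1 library of the groups compared gave 85 (without BI library 2) to 1009 (without MFI8 library 1) calls for MFI8 against BI. It gave 107 (without DMSO library 1) to 871 for MFI8 against DMSO and 54 (without DMSO library 1) to 177 for BI against DMSO. Leaving out a whole number gave 32 to 511, 7 to 567 and 42 to 426. The cause of these moves was not tested. Size factors of DESeq2 changed no count by over 1.5 times. Of the 67 called genes that the text's rule names, 22 were called with each of the 6 libraries left out in turn, 0 without the block, and 0 changed sign under any setting. CXCL8, not called, went to -0.22 without MFI8 library 2 and to -0.25 without the libraries numbered 2, and to 0.51 without those numbered 3. Counts of list members under settings other than the block were added after seeing the data. With 3 libraries a group and 4 residual degrees of freedom, a gene that missed the threshold is not shown to be alike under both compounds.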

Other observations

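Other lists, with members chosen knowing earlier results, showed few calls between MFI8 and BI. Among 20 heat shock and ER chaperone genes 0 were higher and 1 lower, the small heat shock protein gene HSPB1 (-0.46, adjusted p = 0.02 in edgeR). Their median was -0.07, and 14 were lower in all 3 pairs (70%, against 19.6% of all genes). Of 34 lysosomal genes 1 was higher, the alpha-galactosidase gene GLA (0.41, adjusted p = 0.00854), and 0 were lower. Over all genes 1.22% were higher and 2.13% lower, so these single calls are not read as a result about either list. Without BI library 2, and without the libraries numbered 3, 0 were called in either list. The MFI8 libraries held summed fibroblast marker levels of 13800 to 23100 CPM and the BI libraries 14800 to 28700 CPM.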
